A study of Homo sapiens with 16 samples.

Results

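The response of HEK293 cells with optimized receptors to IFNw (interferon omega, a type I interferon) was measured by setting libraries of treated cells against libraries of untreated cells of the same genotype. Libraries were chosen by their genotype and treatment labels alone, which gave 4 of the 16 libraries in the series, 2 per group. HEK293 is an established human embryonic kidney line, grown here in Free-style medium. The other groups used below for comparison were untreated and IFNw-treated cells with wild-type receptors, and optimized-receptor cells with IFNL3 (interferon lambda 3, a type III interferon) or with H11, which the labels describe as IFNL3 with high affinity. The dose was 100 nM for each ligand. Both 15 min of exposure and 24 hr appear in the labels, and their relation is not stated. The sources used here do not say what was changed in the optimized receptors or whether the cells were 1 clone. The labels call the replicates biological but do not mention separate cultures, so p-values measure the spread between these libraries, which may be technical. Untreated cells are the controls, and none of the libraries used here is labelled as mock-treated, so the ligand and any difference in handling cannot be told apart.

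Type I interferons bind the IFNAR1 and IFNAR2 chains and activate the kinases JAK1 and TYK2, which phosphorylate STAT proteins. STAT2 and IRF9 are subunits of the factor ISGF3 that then forms, which binds the interferon-stimulated response element in promoters of antiviral genes. The products block viral entry, sense and degrade viral RNA, conjugate ISG15 to proteins, raise antigen presentation on MHC class I, and feed back on the receptor.

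The 4 libraries held 5331203 to 9822088 reads, and 12704 genes were tested. Levels are given as CPM (counts scaled to library size with TMM factors) for replicates 1 and 2, and changes as log2 fold changes ± SE from edgeR's quasi-likelihood fit. Sums over a gene list are CPM without TMM factors. They are not on the scale of the gene levels, so a difference between groups in such a sum is not read as a response. A gene is said to rise or fall where its Benjamini-Hochberg adjusted p over all tested genes was below 0.05. Since amplicons were counted, levels of different genes are not compared. In bulk RNA a smaller share of cells that express a gene and less RNA per cell cannot be told apart.

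Replicate 2 of the untreated cells was the shallowest library and stood apart. Its pair was the least alike of the 8 groups (Pearson's r 0.9655 between the replicates' log CPM, across genes that are not independent, while the other 7 pairs lay at 0.9826 to 0.9861). Of 6221 genes over 20 CPM in untreated cells, 221 were more than 2-fold lower in replicate 2 and 21 more than 2-fold higher, whereas the IFNw pair had 5 and 10 of 6056. Results that moved without that library are given both ways. In both IFNw libraries, set against the mean of all 16, longer transcripts were lower (Spearman's rho with transcript length -0.436 and -0.45 across genes), against 0.156 and 0.0844 in the untreated pair. An offset that removes this trend from each library was also run. The cell line's marker VIM was at 459.5 and 459.7 CPM untreated and 364 and 332 CPM with IFNw, while NEFM had 1 read over the 4 libraries and PAX2 lay between 1 and 2 CPM. Among markers of other cells PTPRC, CD3E and ALB were at 0 in all 4 libraries. Without TMM factors, fibroblast markers summed to 78.85 and 84.03 CPM untreated and 56.21 and 49.17 CPM with IFNw. How much of that difference comes from the missing factors was not tested, nor was the part of these markers in the results. On the same scale the blood cell markers summed to 1.49 to 2.89 CPM. The hepatocyte markers summed to 0.19 to 0.81 CPM and the keratin markers to 2.25 to 4.5 CPM.

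Promoters of genes with the strongest rises are shown because many hold the letters that ISGF3 reads. The core of its element (TTTC, any 2 bases, then TTTC again) was searched on both strands in RefSeq promoter windows of 300 bases (250 before and 50 after each start site). The motif also holds the GAAA letters that other IRFs read. Of 35116 windows, 3.57% held it, as did 3.92% of the 9733 tested genes with a window. It was in 6.12% of all genes that rose with IFNw, 10.4% of those that rose more than 2-fold and 4.31% of those that fell. Among genes that rose more than 10-fold, 28 of 46 with a window held it (60.9%), and among pathway genes that rose 50 of 83 (60.2%). Of the 15 genes with the largest folds 12 had a window, and 10 of those held a match. The 8 genes taken for the largest rises in CPM were IFI6, ISG15, B2M and the ribosomal protein genes RPL26, RPL10, RPS10, RPS21 and RPL35, and only the first 3 of them held a match. Those 3 are printed, with IFI27 and IFIT1 added after their values were seen, as the 250 bases before the start site (GRCh38.p14), 5′ to 3′ along the gene. Matches are in capitals.
ISG15 (chr1:1013247-1013496, plus strand): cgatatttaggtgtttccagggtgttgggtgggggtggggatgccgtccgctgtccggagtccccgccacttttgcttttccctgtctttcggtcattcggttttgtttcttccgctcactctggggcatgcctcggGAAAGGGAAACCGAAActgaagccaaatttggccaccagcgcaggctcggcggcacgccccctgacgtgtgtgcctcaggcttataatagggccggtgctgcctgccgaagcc
IFI6 (chr1:27672193-27672442, minus strand): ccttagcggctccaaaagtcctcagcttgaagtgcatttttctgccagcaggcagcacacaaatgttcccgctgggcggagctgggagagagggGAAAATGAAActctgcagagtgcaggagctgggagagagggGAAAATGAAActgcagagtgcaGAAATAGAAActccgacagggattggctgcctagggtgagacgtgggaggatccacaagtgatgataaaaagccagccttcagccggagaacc
IFIT1 (chr10:89392373-89392622, plus strand): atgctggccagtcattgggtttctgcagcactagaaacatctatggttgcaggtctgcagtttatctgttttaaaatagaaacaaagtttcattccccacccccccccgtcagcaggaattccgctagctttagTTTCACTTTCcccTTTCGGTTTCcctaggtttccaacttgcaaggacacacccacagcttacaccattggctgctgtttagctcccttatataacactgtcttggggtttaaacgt
IFI27 (chr14:94110486-94110735, plus strand): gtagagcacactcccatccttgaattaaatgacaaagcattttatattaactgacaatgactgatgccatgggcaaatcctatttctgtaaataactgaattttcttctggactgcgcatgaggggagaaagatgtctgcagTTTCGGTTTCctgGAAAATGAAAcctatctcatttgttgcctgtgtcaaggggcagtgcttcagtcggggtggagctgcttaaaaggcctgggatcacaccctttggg
B2M (chr15:44711267-44711516, plus strand): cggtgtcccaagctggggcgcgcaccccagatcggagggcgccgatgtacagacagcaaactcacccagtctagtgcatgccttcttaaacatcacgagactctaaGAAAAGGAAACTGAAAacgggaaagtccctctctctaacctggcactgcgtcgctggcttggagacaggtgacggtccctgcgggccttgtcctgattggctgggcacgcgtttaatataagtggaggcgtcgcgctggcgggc
In ISG15 and B2M a pair of matches overlapped, starting 113 and 107 bases before the start of ISG15 and 144 and 138 bases before that of B2M. IFI6 held 3 matches, IFIT1 held 2 on the plus strand of the gene, and IFI27 held 1 on each strand. A match is a description of the letters and not a measured site.

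IFNw changed the RNA of optimized-receptor cells broadly, and its largest rises were in interferon-stimulated genes. Of 12704 genes 4247 were called (33.4%), 2226 higher (17.5%) and 2021 lower (15.9%). These counts rest on a spread shared by all 8 groups. A fit of the 2 compared groups alone called 1298 of 11952 genes higher and 754 lower. Leaving out untreated replicate 2 gave 2019 higher (15.9%) and 1591 lower (12.5%), and the length offset 1745 (13.7%) and 1689 (13.3%). Most changes were small: 862 genes rose more than 2-fold (6.79%) and 498 fell more than 2-fold (3.92%). With genes of no untreated read taken at the lower bound of their fold (3 reads over the group) and genes on 1 to 3 reads at their count ratio, 63 rises exceeded 10-fold, of which 48 were in the 20 lists of interferon pathway genes. Of the 15 that exceeded 100-fold, 14 were in those lists. The lists were chosen with earlier results of these data known, so these counts describe them and test nothing. The lists held 193 measured genes and 150 tested ones, of which 110 rose, 8 fell and 32 were not called, with a median log2 fold change of 1.97 (also with the bounds) against -0.035 over all tested genes. Together the 193 genes took 0.584% and 0.461% of reads in the untreated libraries and 3.456% and 3.573% with IFNw. The fit of the compared groups alone gave 89 rises and 4 falls among the 140 pathway genes it held. The pathway counts were 96 rises and 6 falls without untreated replicate 2, and 104 and 5 with the length offset.

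**Figure D1:**
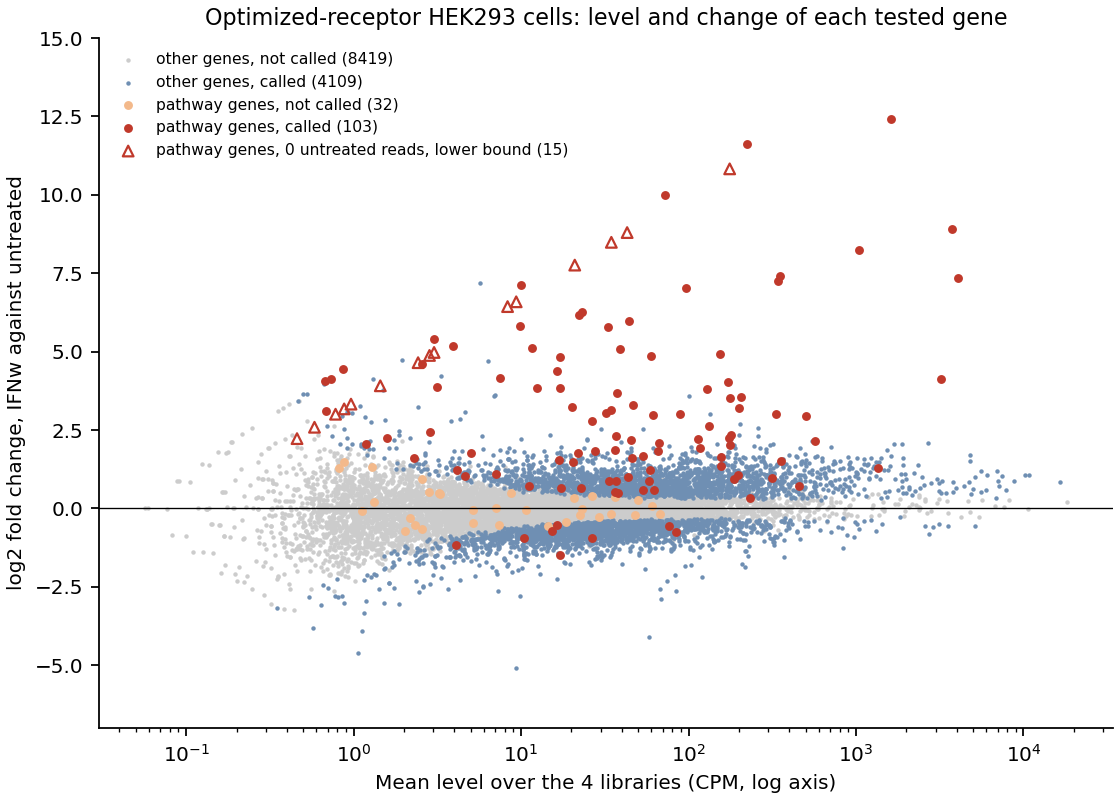
Level (mean CPM of the 4 libraries, log axis) against log2 fold change with IFNw for each tested gene, with pathway genes in red or orange and other genes in blue or gray. The 15 pathway genes with no untreated read are open triangles at the lower bound of their fold, and 26 other genes with no read in a group are not drawn. The points above 5 are almost all pathway genes, while most other called genes lie within 2-fold of no change.

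Most receptor chains and kinases were not called, and the 3 calls went in both directions. IFNAR1 was at 12.3 and 22.6 CPM untreated and 11.8 and 11.5 CPM with IFNw (-0.55 ± 0.25), and its partner IFNAR2 at 29.1 and 44.7 and then 32.0 and 31.9 CPM (-0.19 ± 0.20). Neither was called, and the untreated libraries of both lay apart from each other. The lambda receptor chain IFNLR1, listed as IL28RA, was at 3.16 and 2.28 CPM and then 1.74 and 2.12 CPM, and its partner IL10RB at 21.7 and 26.3 and 20.8 and 20.7 CPM, also without a call. Of 10 tested members 1 rose and 2 fell, or 0 and 1 with the length offset. IFNGR1, a chain of the gamma interferon receptor, rose from 33.5 and 29.8 to 42.5 and 46.1 CPM (0.48 ± 0.15). JAK1 fell from 15.6 and 11.6 to 7.10 and 7.23 CPM (-0.94 ± 0.29), and JAK2, which serves other cytokine receptors, from 4.28 and 7.18 to 2.41 and 2.49 CPM (-1.18 ± 0.40). All 3 calls were weak (edgeR, adjusted p = 0.021, 0.018 and 0.029) and each depended on single libraries. When untreated replicate 2 was left out, IFNGR1 was at 0.40 and JAK2 at -0.80, and without replicate 1 JAK1 was at -0.69, none of them called. JAK1 and JAK2 also lost their calls without IFNw replicate 1 (-0.88 and -1.11) or 2 (-0.91 and -1.16), and IFNGR1 without IFNw replicate 2 (0.46). TYK2, the other kinase of this receptor, was at 34.9 and 29.1 CPM and then 25.4 and 27.7 CPM and was not called. None of the 10 interferon genes on the list had enough reads to be tested, and IFNW1 and IFNB1 had no read in any of the 4 libraries.

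The ISGF3 subunits STAT2 and IRF9 rose, and so did several IRF genes. STAT2, the subunit that ties the complex to type I and III signalling, rose from 33.7 and 37.3 to 84.2 and 80.9 CPM (1.22 ± 0.13). IRF9, which gives the complex its DNA contact, rose from 3.67 and 4.38 to 113 and 119.5 CPM (29.3-fold, 4.87 ± 0.17). For both genes the treated libraries were more than 2-fold above both untreated ones and close to each other. Among the other factors IRF7, which amplifies interferon production, rose from 8.45 and 11.4 to 239 and 357 CPM (30.6-fold, 4.94 ± 0.25). IRF1, a driver of antigen presentation genes, rose 2.13-fold (1.09 ± 0.22) and IRF3, a factor activated by RNA sensing, 1.83-fold (0.87 ± 0.18). In all 8 of 10 tested members rose and 1 fell, with a median of 1.16. The calls of IRF2 (0.64 ± 0.17), IRF8 (2.05 ± 0.72) and IRF5, the one that fell (-0.52 ± 0.19), were each lost when 1 library was left out. That held for IRF2 without untreated replicate 1 (0.43). IRF8 lost its call without either untreated library (1.85 and 2.20) and without IFNw replicate 2 (1.42), and IRF5 without untreated replicate 2 (-0.37) or either IFNw library (-0.53 and -0.42). STAT3, which answers to other cytokines, was at 68.8 and 48.2 and then 63.2 and 62.2 CPM, with no call (0.09 ± 0.15).

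Feedback genes split between 2 induced inhibitors and a few that fell. USP18, which removes ISG15 from proteins and blocks the receptor at IFNAR2, rose from 18.9 and 20.3 to 146 and 170.0 CPM (8.07-fold, 3.01 ± 0.15, edgeR adjusted p = 1.2e-10). ISG15, which stabilises USP18, rose as given below, and these were the only 2 of 11 tested members to rise. SH2B3, an adaptor that restrains JAK2, fell from 28.5 and 22.1 to 8.70 and 9.47 CPM (-1.48 ± 0.24). PTPN11, the phosphatase SHP2, fell from 124 and 86.5 to 66.3 and 59.3 CPM (-0.75 ± 0.16), and PIAS1, an inhibitor of STAT proteins, from 85.8 and 97.0 to 63.3 and 60.6 CPM (-0.56 ± 0.14). PIAS1 was not called with the length offset (-0.25) or without IFNw replicate 2 (-0.49). SOCS3, an inhibitor of other cytokine receptors, was at 0.509 and 2.10 CPM untreated and 1.34 and 1.37 CPM with IFNw, and was not called.

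**Figure D2:**
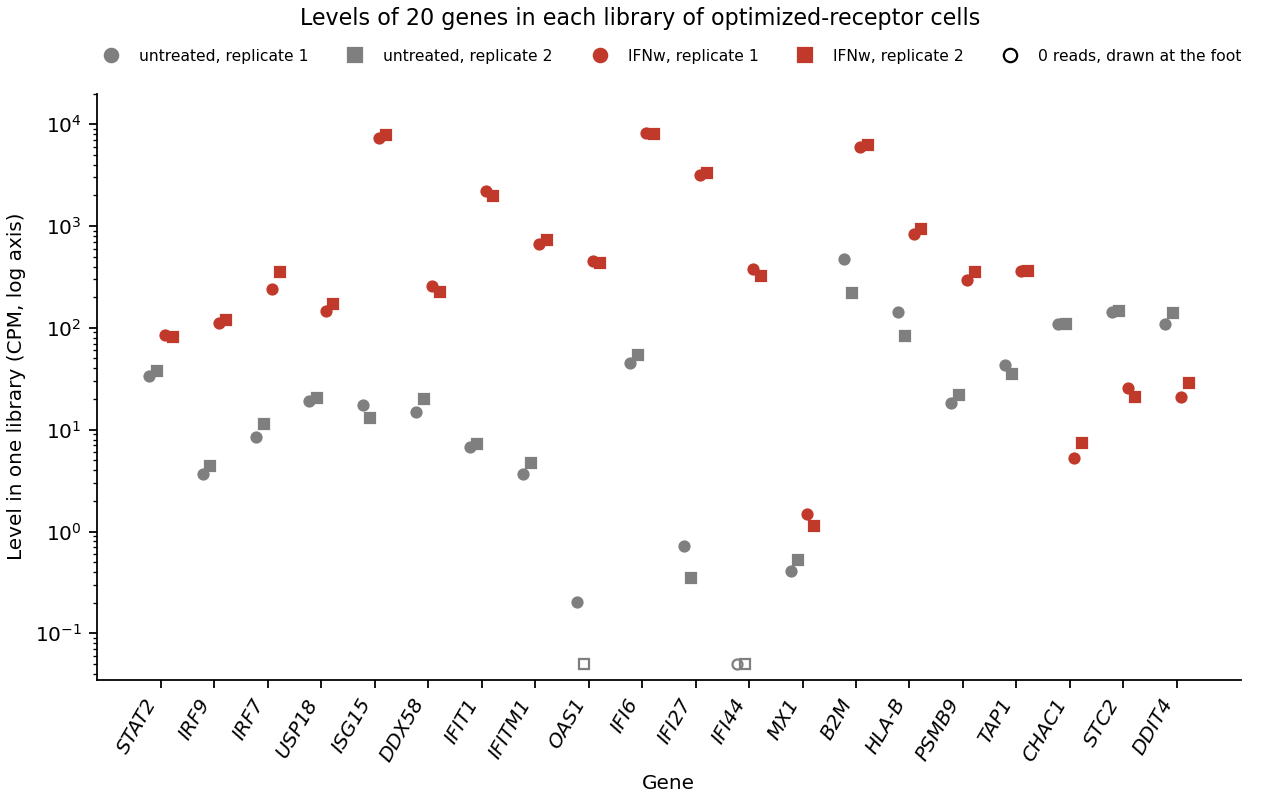
Level in each library (CPM, log axis) of 20 genes in untreated (gray) and IFNw-treated (red) optimized-receptor cells, with circles for replicate 1 and squares for replicate 2 and open symbols at the foot for 0 reads. The treated libraries lie above both untreated ones for all genes from STAT2 to TAP1 and below them for CHAC1, STC2 and DDIT4. MX1 lies within a few-fold of its untreated level, and the untreated pair of B2M is spread more widely than its treated pair.

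All 7 tested members of the list of ISG15 and its conjugation, which also holds USP18, rose, with a median of 3.01. ISG15, a ubiquitin-like modifier, was at 17.5 and 13.0 CPM in untreated cells and 7266 and 7770.0 CPM with IFNw (486-fold, 8.92 ± 0.18, edgeR adjusted p = 4.1e-16). Its conjugating enzyme UBE2L6 rose from 22.6 and 28.5 to 99.6 and 115 CPM (2.08 ± 0.15), and the ligase HERC5 from 12.5 and 12.1 to 65.6 and 56.3 CPM (2.30 ± 0.16). HERC6, a relative of HERC5, rose 8.83-fold (3.14 ± 0.18), and TRIM25, a ligase that acts on the sensor RIG-I, 1.52-fold (0.60 ± 0.15). The activating enzyme UBA7 rose from 0.102 and 0.700 to 17.3 and 21.2 CPM (5.82 ± 0.42). Few untreated reads made its fold uncertain, at 4.75 without untreated replicate 1 and 7.38 without replicate 2.

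Sensors of viral nucleic acid rose in 9 of 11 tested genes, and MAVS, the adaptor on which the RNA sensors converge, fell. DDX58, which encodes RIG-I, rose from 14.8 and 20.1 to 256 and 224 CPM (13.9-fold, 3.80 ± 0.16). IFIH1, which encodes MDA5, rose from 0.204 and 1.23 to 43.1 and 43.8 CPM (6.17 ± 0.34), with 5.13 and 7.64 without untreated replicate 1 or 2. DHX58, which encodes the regulator LGP2, had no untreated read and was at least 96.3-fold higher, where the bound takes 3 reads over the untreated group. The helicases DDX60 and DDX60L rose by 5.99 ± 0.19 and 4.39 ± 0.33, and the DNA sensor IFI16 from 1.32 and 0.876 to 36.2 and 29.8 CPM (4.82 ± 0.31). The rises of MYD88 (0.86 ± 0.18), an adaptor of Toll-like receptors, and ZNFX1 (1.56 ± 0.26), a mitochondrial RNA sensor, were smaller. TLR3, a sensor of double-stranded RNA in endosomes, went from 0 and 0.175 CPM, on 1 read, to 1.74 and 0.997 CPM, 21.1-fold higher (counting interval 3.39 to 871), and was not called without untreated replicate 1 (2.86). MAVS went from 19.9 and 17.9 to 11.9 and 11.2 CPM (-0.71 ± 0.18), and its call was lost with the length offset (-0.33) and without IFNw replicate 2 (-0.63). The DNA sensor genes MB21D1 (cGAS), ZBP1 and AIM2 had at most 1 read over the 4 libraries and were not tested.

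Binders of viral RNA and blockers of viral entry were among the strongest rises. IFIT1, which holds back translation of foreign RNA, rose from 6.72 and 7.18 to 2189.8 and 1986 CPM (301-fold, 8.24 ± 0.17, edgeR adjusted p = 4.1e-16). Its partner IFIT3 had no untreated read and 89.7 and 82.3 CPM with IFNw, at least 445-fold higher. IFIT2 rose from 0.815 and 0.350 to 18.9 and 26.3 CPM (5.12 ± 0.36, or 5.96 without untreated replicate 1) and IFIT5 from 2.04 and 2.45 to 72.3 and 79.0 CPM (5.10 ± 0.21), so that all 4 tested members of the family rose. The membrane proteins IFITM1 and IFITM3, which stop viral fusion, rose 169-fold (3.67 and 4.73 to 661 and 732 CPM, 7.41 ± 0.19) and 153-fold (3.26 and 6.13 to 641 and 718 CPM, 7.26 ± 0.21). IFITM2, the third of the family, rose from 0.611 and 1.05 to 12.9 and 15.3 CPM (4.15 ± 0.43). These genes are close copies of each other, and the sources used here do not say whether the counting splits reads between them. IFITM3 was at 6.66 with the length offset.

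On the list of OAS enzymes, the kinase PKR, the RNA editor ADAR and RNA decay factors, 10 of 13 tested genes rose. None fell with all libraries in the fit, and 9 rose with the length offset. OAS1 makes a second messenger on binding double-stranded RNA, and its counts went from 0.204 and 0 CPM, on 2 reads, to 457 and 437 CPM, 3466-fold higher (counting interval 959 to 28623). OAS2 also went from 2 untreated reads, and was 1125-fold higher (counting interval 311 to 9295). The untreated reads of each lay in 1 library, so the group is at 0 without it. Leaving out the other untreated library left calls at 11.01 for OAS1 and 8.64 for OAS2. OASL, a relative without the synthetic activity, had no untreated read and was at least 86.6-fold higher. OAS3 rose from 1.93 and 2.63 to 32.4 and 31.7 CPM (3.85 ± 0.22). EIF2AK2, the kinase PKR that halts translation, rose 3.14-fold from an untreated level of 63.9 and 87.2 CPM (1.65 ± 0.14). The RNA editor ADAR, which dampens sensing of self RNA, rose from 155 and 99.6 to 277 and 218 CPM (0.95 ± 0.18). C19orf66, an inhibitor of viral frameshifting, rose 9.84-fold (3.30 ± 0.20), and PNPT1, an RNA-degrading enzyme of mitochondria, 3.82-fold (1.93 ± 0.12). The calls of ZC3HAV1 (0.58 ± 0.18) and ISG20 (1.04 ± 0.38) were lost without untreated replicate 1, at 0.29 and 0.42, and without IFNw replicate 2, at 0.55 and 1.16. ISG20 was at 1.01 and not called without IFNw replicate 1, and at 1.80 and called without untreated replicate 2.

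The families of IFI6, IFI27 and IFI44 held several of the largest changes. IFI6, which protects membranes of the endoplasmic reticulum from viral use, rose from 45.5 and 54.3 to 8270.0 and 7981 CPM (163-fold, 7.35 ± 0.15, or 6.76 with the length offset). IFI27, a small membrane protein induced across cell types, rose from 0.713 and 0.350 CPM, on 9 reads, to 3179 and 3278 CPM (12.42 ± 0.29), with 13.11 without untreated replicate 1 and 11.81 with the length offset. IFI44 had no untreated read and 381 and 323 CPM with IFNw, at least 1818-fold higher, and its neighbour IFI44L was at least 217-fold higher. The related IFI27L1 was at 2.24 and 2.63 and then 1.61 and 2.24 CPM, with no call, and IFI27L2 was called (1.75 ± 0.59, or 2.46 without untreated replicate 1) but not without untreated replicate 2 (1.40) or IFNw replicate 1 (1.42), nor with the length offset (1.10). RSAD2, the enzyme viperin that makes a chain-terminating nucleotide, had no untreated read and 69.1 and 69.3 CPM with IFNw, at least 358-fold higher. Its neighbour CMPK2, which supplies it with nucleotides, rose from 0.611 and 0.525 to 47.0 and 44.4 CPM (6.27 ± 0.35), and SAMHD1, which depletes nucleotide pools, rose 4.56-fold (2.19 ± 0.17).

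MX1, a GTPase used as a standard marker of interferon action, was not called. Its counts were 0.407 and 0.525 CPM untreated and 1.47 and 1.12 CPM with IFNw (1.48 ± 0.76, edgeR adjusted p = 0.14), which puts the treated libraries above the untreated ones on few reads. MX2 went from no read to 1.34 and 0.997 CPM and GBP1, a guanylate-binding GTPase, from no read to 5.49 and 6.61 CPM, at least 6.02-fold and 31.4-fold higher. GBP2 to GBP5 had at most 1 read over the 4 libraries. How well these amplicons count their transcripts was not tested.

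Most genes of the lists of ligases, ADP-ribosyl transferases and nuclear body proteins rose, by factors that differed widely. Of 9 tested TRIM genes 8 rose, led by TRIM21, the intracellular antibody receptor, from 7.43 and 6.48 to 51.8 and 63.3 CPM (3.03 ± 0.19), and TRIM22 from 15.3 and 12.3 to 98.4 and 119.5 CPM (2.97 ± 0.19). TRIM5, which captures retroviral capsids, rose 3.56-fold (1.83 ± 0.15). Of 7 tested members of the PARP list 5 rose, including PARP10 (5.78 ± 0.24), PARP12 (2.78 ± 0.19), PARP14 (1.88 ± 0.24) and DTX3L, the ligase partner of PARP9, from 4.28 and 6.83 to 71.1 and 67.1 CPM (3.69 ± 0.20). PARP11 and TIPARP were not called. All 7 tested genes of the list that joins nuclear body proteins with IFI35 and NMI rose, or 6 with the length offset. Not all of these calls held without untreated replicate 2. PML, the scaffold of nuclear bodies, rose 3.05-fold (1.61 ± 0.17). IFI35 and its partner NMI rose from 1.93 and 0.700 to 192 and 195 CPM (7.03 ± 0.24) and from 2.44 and 0.350 to 23.2 and 24.1 CPM (3.86 ± 0.37). The last 2 were at 8.08 and 6.02 without untreated replicate 1, and NMI at 3.27 without replicate 2. SP100 had no untreated read and went to 1.74 and 2.12 CPM, and the DAXX call (0.53 ± 0.16) was lost without untreated replicate 2 (0.32) or IFNw replicate 2 (0.57).

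Other effectors of entry, egress and replication rose in 13 of 18 tested genes, and none fell. BST2, or tetherin, which holds budding virions at the surface, rose from 206 and 216 to 922 and 947 CPM (2.15 ± 0.14). PLSCR1, a phospholipid scramblase that blocks viral fusion, rose from 28.7 and 28.4 to 341 and 308 CPM (11.4-fold, 3.51 ± 0.16), and LY6E, an inhibitor of coronavirus fusion, from 56.7 and 85.1 to 286 and 282 CPM (2.01 ± 0.16). SAMD9, a sensor that poxviruses must disable, went from 0.204 and 0 CPM, on 2 reads, to 18.7 and 21.2 CPM, 155-fold higher (counting interval 42.7 to 1289). XAF1, a pro-apoptotic factor, and RTP4, which binds viral RNA, had no untreated read and were at least 29.4-fold and 25.1-fold higher. The cytidine deaminases differed: APOBEC3G went from 0.305 and 0 to 4.42 and 5.48 CPM, 25.7-fold higher (counting interval 8.48 to 128), while APOBEC3B (0.46 ± 0.44), APOBEC3C (-0.53 ± 0.24) and APOBEC3F (-0.04 ± 0.29) were not called. EPSTI1 and CH25H had no read.

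Genes of antigen presentation on MHC class I rose in RNA, from the proteasome to the surface chain. B2M, the class I light chain, went from 477 and 218 CPM to 5975 and 6175 CPM (17.5-fold, 4.13 ± 0.24). Its untreated libraries lay more than 2-fold apart, and the rise was 3.67 without untreated replicate 2 and 4.80 without replicate 1. The heavy chains HLA-B (144 and 83.7 to 840.4 and 930.2 CPM, 2.95 ± 0.18) and HLA-E (45.7 and 34.5 to 191 and 185 CPM, 2.22 ± 0.14) rose, although reads may be shared between these similar genes. NLRC5, the transactivator of class I genes, rose 3.41-fold (1.77 ± 0.19), and HLA-C rose by 2.44 ± 0.52, or 3.18 without untreated replicate 1. All 6 tested members rose, with a median of 2.53.

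The immunoproteasome and peptide loading machinery followed, with 12 of 13 tested members up, or 8 without untreated replicate 2. Among the catalytic subunits PSMB9 rose from 18.2 and 21.9 to 296 and 351 CPM (16.3-fold, 4.02 ± 0.19, or 3.42 with the length offset). PSMB8 rose from 66.7 and 78.6 to 592 and 589 CPM (3.03 ± 0.13) and PSMB10 from 61.7 and 60.8 to 313 and 266 CPM (2.24 ± 0.13). For all 3 the treated libraries were several-fold above both untreated ones. The activator subunits PSME2 and PSME1 rose by 2.34 ± 0.13 and 0.98 ± 0.14, the peptide transporter TAP1 from 42.8 and 35.2 to 362 and 362 CPM (9.24-fold, 3.21 ± 0.13), and the trimming peptidase ERAP1 by 1.49 ± 0.20. The 4 calls that were lost without untreated replicate 2 were TAP2 (0.88 ± 0.24, then 0.50), ERAP2 (2.25 ± 0.70, then 1.55), and the chaperones CALR (1.29 ± 0.38, then 0.70) and PDIA3 (0.70 ± 0.25, then 0.31). CALR was at 1185 and 382 CPM in the untreated libraries, TAP2 at 33.9 and 17.0 and PDIA3 at 457 and 238 CPM, each far lower in replicate 2. Leaving out untreated replicate 1 instead gave 1.49 for TAP2, 2.33 for CALR and 1.25 for PDIA3. CALR and PDIA3 also lost their calls without IFNw replicate 1 (1.20 and 0.54), and ERAP2, whose untreated reads all lay in replicate 1, without IFNw replicate 2 (2.20).

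The chemokine genes named here were at low counts. CXCL10, which attracts T cells, went from no read to 1.87 and 1.25 CPM, at least 8.02-fold higher. CXCL9 and CCL8 had no read. APOL1, a lipid-binding defence protein, was at least 9.02-fold higher, and TNFSF10, the death ligand TRAIL, rose from 0.305 and 0.525 to 4.82 and 6.98 CPM (3.88 ± 0.57). In this list 5 of 6 tested genes rose, or 3 without untreated replicate 2. Without TMM factors, the cell death list summed to 186.2 and 194.52 CPM untreated and 299.66 and 259.31 CPM with IFNw. Of its 8 tested genes 6 rose and 1 fell, or 5 and 1 with the length offset. BAK1, a pore-forming protein of mitochondria, rose from 32.5 and 25.4 to 53.3 and 62.8 CPM (0.99 ± 0.15). The calls of FAS, a death receptor (1.23 ± 0.41), and BCL2L13 (-0.94 ± 0.22), the one that fell, were lost without untreated replicate 2, at 1.30 and -0.56. FAS also lost its call without IFNw replicate 2 (0.83) and without untreated replicate 1 (1.13).

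**Figure D3:**
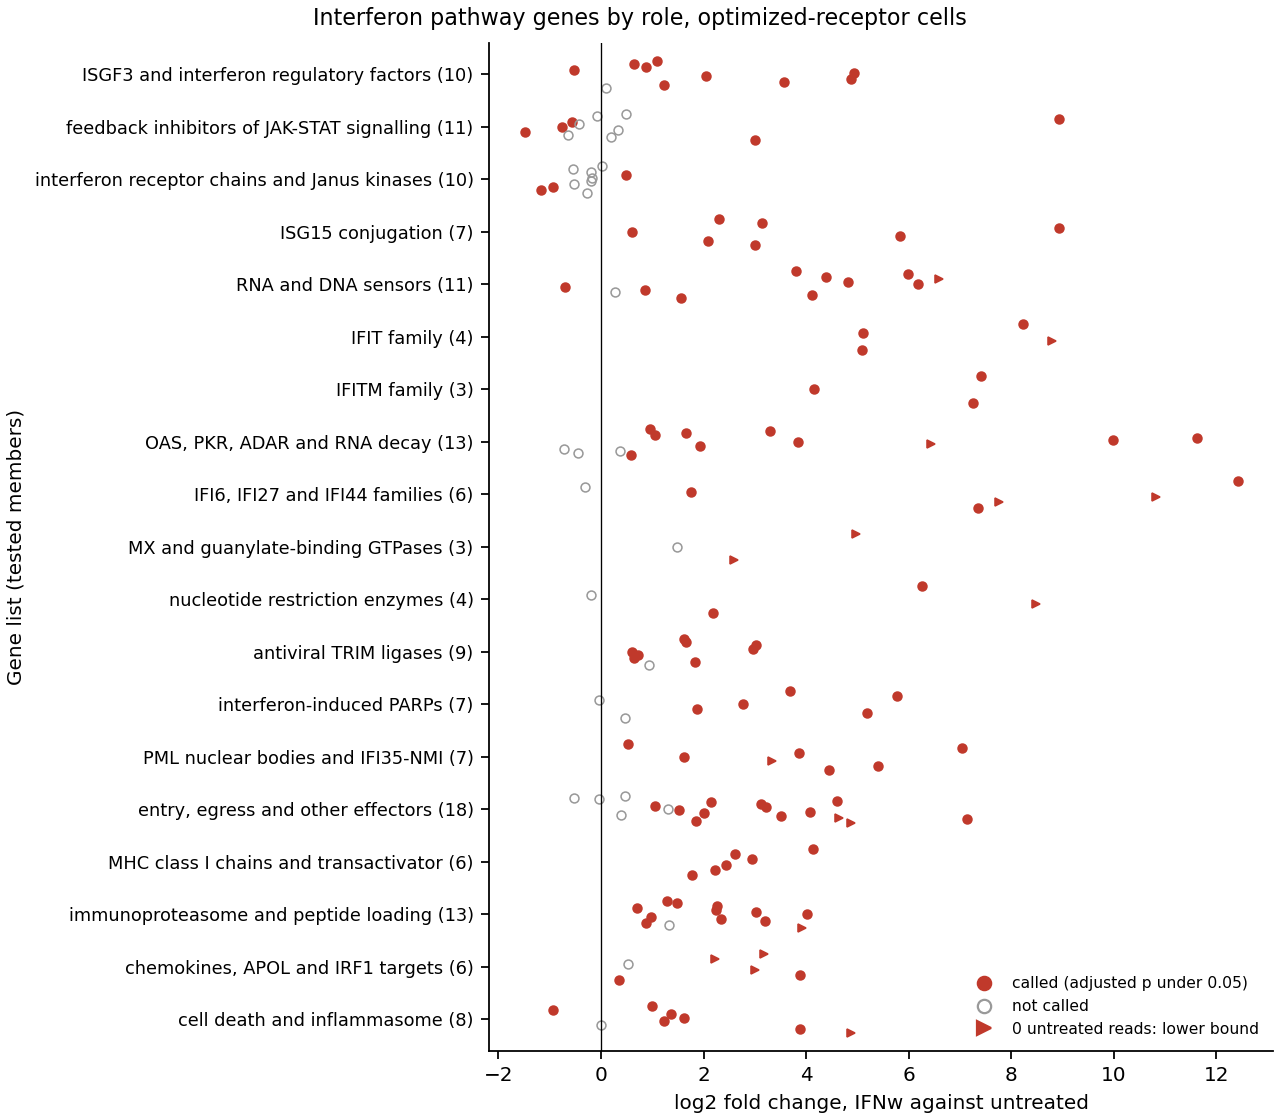
Log2 fold change with IFNw of each tested pathway gene, in rows by list, filled where called and open where not, with triangles at the lower bound of genes with no untreated read. Nearly all members of the effector and antigen presentation lists lie to the right of 0, while receptor chains, kinases and feedback genes lie on both sides.

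Genes of the amino-acid stress response fell with IFNw. Their list holds ATF4, a factor made when amino acids run short or the endoplasmic reticulum is stressed, and its targets. Of 24 tested members 22 fell and 0 rose, with a median of -1.53, where 15.9% of all genes fell. This list too was chosen with earlier results of these data known, so its share is a description only. More than 2-fold falls came to 18 members, where 3.92% of all genes fell so far. The count of falls was 21 without untreated replicate 2 and also with the length offset. The members not called were ATF4 itself (987 and 753 CPM untreated, 889 and 816 CPM with IFNw, -0.03 ± 0.13) and DDIT3 (-0.12 ± 0.66), which encodes the stress factor CHOP. CHAC1, which degrades glutathione, fell from 110.1 and 109.8 CPM to 5.22 and 7.48 CPM (17.2-fold, -4.11 ± 0.21, edgeR adjusted p = 1.1e-10). INHBE, an activin chain, fell from 13.9 and 22.4 to 0.402 and 0.623 CPM (34.0-fold, -5.09 ± 0.41), and the cystine transporter SLC7A11 from 101 and 142 to 15.3 and 17.2 CPM (-2.90 ± 0.22). No untreated library of these 3 came near a treated one. STC2, a secreted glycoprotein, fell 6.27-fold (-2.65 ± 0.16), DDIT4, which restrains mTOR, 4.98-fold (-2.32 ± 0.18), and PCK2, mitochondrial phosphoenolpyruvate carboxykinase, 4.56-fold (-2.19 ± 0.16). CTH, which makes cysteine from cystathionine and is not on the list, fell from 109 and 122 to 20.5 and 18.3 CPM (-2.57 ± 0.20).

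Cytosolic tRNA synthetases, which load amino acids onto tRNAs, moved with that group in part, with 11 of 20 tested members down and 2 up (median -0.85). GARS fell from 311 and 368 to 79.7 and 107 CPM (-1.86 ± 0.15), CARS from 14.7 and 15.9 to 6.16 and 5.11 CPM (-1.44 ± 0.23), NARS from 216 and 176 to 82.5 and 76.4 CPM (-1.30 ± 0.15) and AARS from 342 and 301 to 142 and 139 CPM (-1.20 ± 0.12). Each treated library was below both untreated ones. FARSA rose from 85.2 and 58.5 to 137 and 176 CPM (1.12 ± 0.20), and WARS, which interferons are known to induce, rose by 0.35 ± 0.11, a call lost without untreated replicate 2 (0.25), without IFNw replicate 2 (0.36) and with the length offset (0.31). The first 8 letters of the element that ATF4 binds with C/EBP partners, TGATGNAA, were searched on both strands of the same windows, after the falls had been seen. They were found in 2.73% of tested genes with a window, in 4 of 17 ATF4 list genes that fell (23.5%) and in 6 of 8 synthetases that fell (75%), against 8.26% of all genes that fell more than 2-fold and 1.37% of those that rose more than 2-fold. CHAC1 and ASNS (asparagine synthetase, 378 and 288 to 125 and 111 CPM) are printed as above, as 1 example on each strand, with the match in capitals.
CHAC1 (chr15:40953221-40953470, plus strand): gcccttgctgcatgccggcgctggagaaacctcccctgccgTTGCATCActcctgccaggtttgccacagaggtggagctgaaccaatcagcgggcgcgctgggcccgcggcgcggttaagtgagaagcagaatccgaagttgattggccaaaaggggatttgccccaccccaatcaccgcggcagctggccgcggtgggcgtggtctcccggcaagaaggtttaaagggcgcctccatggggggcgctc
ASNS (chr7:97872409-97872658, minus strand): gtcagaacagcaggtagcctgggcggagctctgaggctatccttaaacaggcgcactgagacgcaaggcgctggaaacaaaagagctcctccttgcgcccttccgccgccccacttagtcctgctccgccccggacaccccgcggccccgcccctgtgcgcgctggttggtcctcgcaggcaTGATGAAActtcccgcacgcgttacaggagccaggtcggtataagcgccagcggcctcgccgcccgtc
The match lay 209 bases before the start of CHAC1 and 68 bases before that of ASNS, the latter on the same strand as the gene.

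Many heat shock and cholesterol synthesis genes rose while the ATF4 targets fell. Of 18 tested heat shock chaperones 9 rose and 0 fell, where 17.5% of all tested genes rose and 15.9% fell. DNAJA1, a co-chaperone, rose from 223 and 241 to 762 and 767 CPM (1.72 ± 0.11), DNAJB1 from 13.2 and 11.4 to 39.0 and 41.5 CPM (1.70 ± 0.18) and HSPE1, a mitochondrial chaperonin, from 516 and 696 to 1618 and 1651 CPM (1.43 ± 0.13). Of 18 tested genes of the endoplasmic reticulum 10 rose and 2 fell. The chaperones PDIA4 (32.3 and 40.3 to 86.1 and 90.0 CPM, 1.29 ± 0.15) and SDF2L1 (1.17 ± 0.21, or 0.59 with the length offset) rose, and HERPUD1, which aids degradation of misfolded proteins, fell from 144 and 161 to 57.7 and 64.8 CPM (-1.31 ± 0.13), as did SEL1L of the same degradation route (-0.64 ± 0.15, or -0.34 and no call with the offset). Cholesterol synthesis rose in 17 of 24 tested genes and fell in 1, its regulator SREBF2 (-0.62 ± 0.13; median 0.66, or 0.56 with the length offset and 0.80 without untreated replicate 2). Its isoprenoid isomerase IDI1 rose from 103 and 118 to 413 and 431 CPM (3.83-fold, 1.94 ± 0.11), and the sterol oxidase MSMO1 from 90.9 and 91.1 to 217 and 187 CPM (1.15 ± 0.12). FDFT1, squalene synthase, was at 399 and 134 CPM untreated and 815 and 646 CPM with IFNw (1.45 ± 0.30, or 2.45 without untreated replicate 1 and 0.87 without replicate 2).

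Groups of short transcripts rose in part, beside the length trend of the IFNw libraries. Of 50 ribosomal protein genes 26 rose and 0 fell (median 0.43), but with the length offset 17 rose and 13 fell and the median was -0.02. Over all tested genes 17.5% rose and 15.9% fell, or 13.7% and 13.3% with the offset. Respiratory chain subunits rose in 22 of 40 and fell in 3 (median 0.54, or 0.24 with the offset), and constitutive proteasome subunits in 18 of 27 with 1 fall (median 0.69, or 0.32). Among those whose rise held with the offset were RPS14 (2.35 ± 0.21, then 2.18), the complex III subunit UQCRB (1.48 ± 0.15, then 1.68) and the proteasome subunits PSMC6 (1.48 ± 0.14, then 1.26) and PSMA6 (1.57 ± 0.14, then 1.03). Histone genes, whose copies share sequence, rose in 4 of 17 and fell in 7, or in 1 and 11 with the offset. HIST1H2BK (0.98 ± 0.15) and HIST1H1D (0.78 ± 0.11) lost their rises with the offset, at 0.30 and 0.14, while HIST1H4H fell by either measure (-0.75 ± 0.14, then -1.29). The noncoding RNAs RMRP (12982 and 10606 to 21746 and 20735 CPM, 0.85 ± 0.12) and RPPH1 (7129 and 5950.3 to 12218 and 15465 CPM), RNA parts of the RNase MRP and RNase P enzymes, also lost their calls with the offset (0.17 and 0.41). How much of these rises the length trend accounts for was not tested beyond that offset.

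Lists of cell cycle, immediate early and other stress genes held calls in both directions. The shares over all tested genes were 17.5% higher and 15.9% lower. Mitosis genes fell in 6 of 18 and rose in 1. MKI67, the proliferation marker Ki-67, fell from 93.4 and 137 to 45.8 and 47.7 CPM (-1.29 ± 0.16, or -0.91 with the offset) and TOP2A, a topoisomerase, from 400.5 and 449 to 234 and 207 CPM (-0.94 ± 0.12), while the kinase CDK1 rose from 589.9 and 402 to 1445 and 1193 CPM (1.41 ± 0.16). In DNA replication 4 of 20 genes rose and 4 fell, including the licensing factor CDT1 (71.4 and 96.5 to 36.0 and 31.8 CPM, -1.30 ± 0.16). Immediate early genes rose in 3 of 15 and fell in 3. IER3 and JUNB rose by 1.34 ± 0.22 and 1.06 ± 0.19 and the phosphatase DUSP1 by 0.73 ± 0.17, or 0.48 and no call with the length offset. ATF3, a stress-induced factor, fell (-1.85 ± 0.40), a call lost without untreated replicate 1 (-1.09). NF-kappaB targets rose in 2 of 9 and fell in 3, or rose in 2 and fell in 1 without untreated replicate 2, and 1 and 1 with the length offset. NFKBIA, the inhibitor of the pathway, was at 0.61 ± 0.17, or 0.23 with the offset and 0.44 without IFNw replicate 2, with no call in either. Glycolysis and hypoxia genes rose in 6 of 19 and fell in 5, or 5 and 3 without untreated replicate 2. Among p53 targets 2 of 14 rose and 3 fell, or 1 and 2 without that library and 1 and 3 with the length offset. ZMAT3 (-1.88 ± 0.41), an RNA-binding p53 target, was also called in every fit that left out 1 of the 4 libraries (-1.43 to -2.34). The calls of TP53I3 (1.16 ± 0.32) and BBC3 (-0.67 ± 0.23) were lost without untreated replicate 2 (0.69 and -0.48) and without IFNw replicate 1 (1.12 and -0.44), with TP53I3 at 2.15 without untreated replicate 1. Those of FDXR (0.66 ± 0.16) and MDM2 (-0.57 ± 0.13) were lost with the length offset (0.39 and -0.18). Of 9 TGF-beta and YAP targets 2 rose (CYR61 and ID1) and 2 fell (AMOTL2 and SKIL), or 3 and 0 without untreated replicate 2 and 1 and 0 with the length offset, where ID1 lost its call (0.25). AMOTL2 (-0.64 ± 0.24) was not called in any fit that left out 1 of the 4 libraries (-0.44 to -0.78), and SKIL (-0.66 ± 0.19) not without untreated replicate 2 (-0.49) or IFNw replicate 1 (-0.49).

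Falls also occurred outside the lists. Of the 15 genes with the largest falls 8 were on no list, as were 96.0% of all tested genes. They included HOXB9, a homeobox factor (16.6 and 17.7 to 2.28 and 2.62 CPM, -2.80 ± 0.26), TSC22D3, a glucocorticoid-induced leucine zipper protein (154 and 117 to 31.1 and 31.0 CPM, -2.13 ± 0.15), HHIP, which binds hedgehog (7.84 and 9.46 to 1.61 and 2.24 CPM, -2.14 ± 0.33), and AKNA, a centrosome protein (12.8 and 12.3 to 1.47 and 2.49 CPM, -2.65 ± 0.32). In each of these 4 the groups were several-fold apart. Among the largest falls in CPM was SOX2, a stem cell factor that HEK293 cells express, from 1021 and 1349 to 486 and 501 CPM (-1.26 ± 0.15), and the actin gene ACTB, from 5581 and 6621 to 4116 and 4197 CPM (-0.55 ± 0.11). Markers of the line itself moved in both directions. VIM (-0.40 ± 0.12), the adhesion protein CDH2 (-0.98 ± 0.18) and LHX1 (-0.92 ± 0.20) fell. Of the 8 tested markers of the line these 3 fell and 1 rose, with a median of -0.05. The 1 that rose was the only call past 2-fold (1.03), and that call was lost without untreated replicate 2. The call of VIM was lost without IFNw replicate 1 (-0.42) or 2 (-0.30). Without TMM factors, the markers of the line summed to 639.05 and 627.63 CPM untreated and 400.9 and 384.54 CPM with IFNw. How much of that difference comes from the missing factors was not tested.

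**Figure D4:**
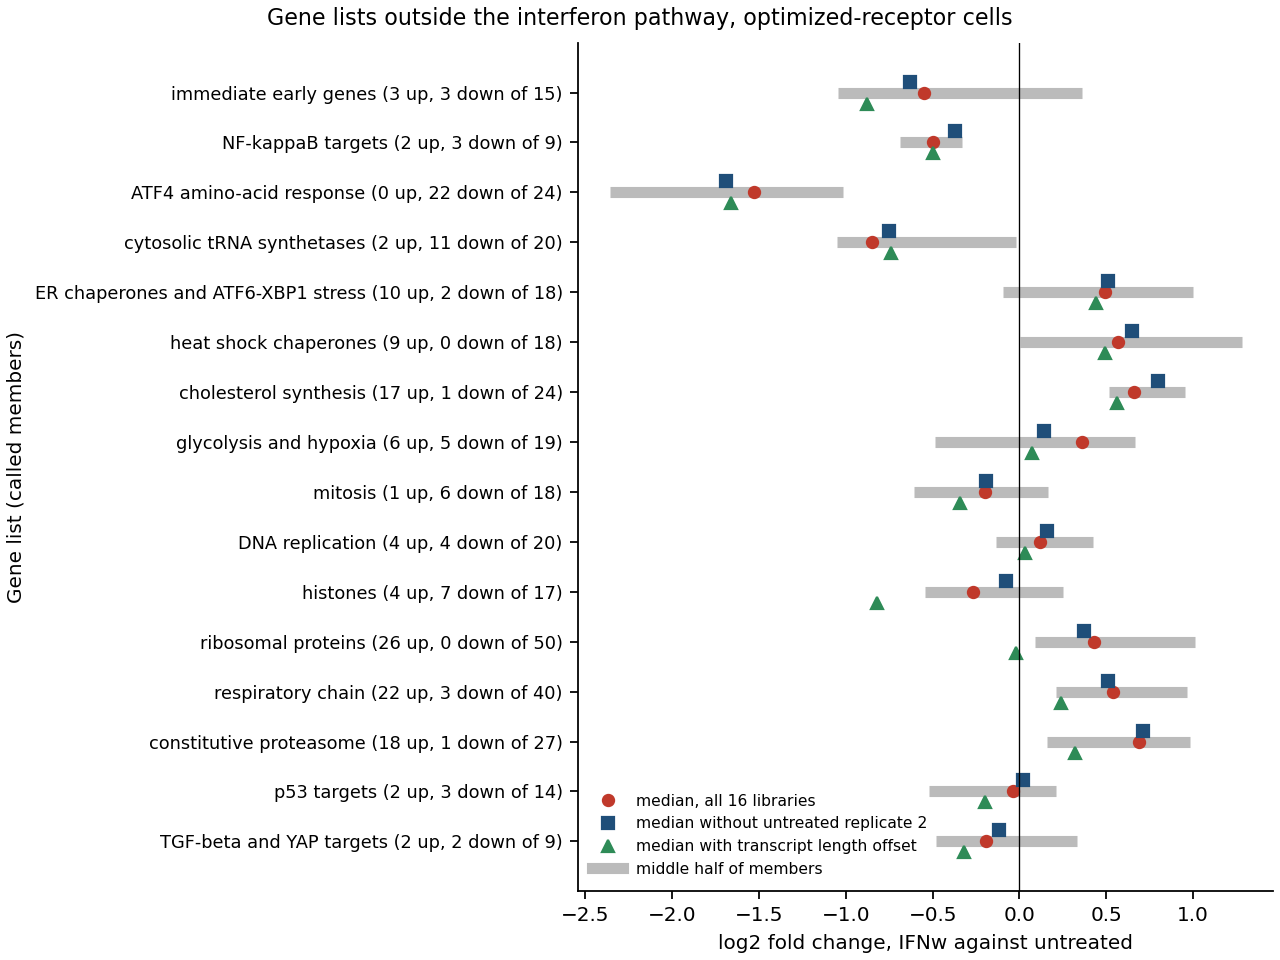
Median log2 fold change with IFNw of 16 lists outside the interferon pathway, with all libraries (circles), without untreated replicate 2 (squares) and with the length offset (triangles), and gray bars from the lower to the upper quartile of the members. The ATF4 and synthetase lists lie below 0 and the cholesterol list above 0 under all of these, while the ribosomal protein median moves from 0.43 to -0.02 with the offset.

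No gene's response to IFNw was called different from that of cells with wild-type receptors. A term for the difference between the responses was called for 0 of 12704 genes (0.0%) by edgeR and for 0 by DESeq2, with 633 genes (4.98%) at an unadjusted p under 0.05. In wild-type cells 3988 genes were called with IFNw (31.4%), and of 2919 called in both genotypes 1 had the opposite direction. It was SLC25A15, a mitochondrial ornithine carrier, named here after its values were seen (0.81 ± 0.25 in optimized cells, 0.42 and not called without untreated replicate 2, and -0.79 ± 0.24 in wild-type cells). The difference in log2 response of optimized against wild-type cells was 0.17 ± 0.20 for ISG15 (95% interval -0.25 to 0.59), -0.12 ± 0.16 for IFI6 (-0.46 to 0.22) and -0.01 ± 0.29 for CHAC1 (-0.62 to 0.61). All 3 intervals lay within 2-fold. ISG15, for example, was at 19.2 and 17.0 CPM in untreated and 7706 and 7856 CPM in IFNw-treated wild-type cells. Of the 150 tested pathway genes 69 had such an interval, so for the other 81 a difference of 2-fold or more is within what these libraries allow. IFI27 is one of them (-1.32 ± 0.72, -2.84 to 0.21), as is PSMB9 (-0.73 ± 0.25, -1.25 to -0.20). Across all genes at 5 CPM or more with IFNw, 7101 of 9729 had an interval within 2-fold. The count of called differences rested on the untreated libraries. Without untreated optimized replicate 1, which leaves the divergent library to stand for its group, 766 genes were called, and without replicate 2, 0. Without replicate 1 of untreated wild-type cells 1 gene was called (NAT14, -2.06 ± 0.30, edgeR adjusted p = 0.043), and without the low-count filter 15.

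No gene was called different between IFNw and H11 in optimized-receptor cells. EdgeR called 0 of 12704 genes (0.0%) and DESeq2 called 0, with 279 genes (2.2%) at an unadjusted p under 0.05. ISG15 was at 7266 and 7770.0 CPM with IFNw and 6759 and 7526 CPM with H11 (0.07 ± 0.13, 95% interval -0.19 to 0.34), and IFI27 at 3179 and 3278 and 3180.0 and 2908 CPM (0.08 ± 0.15, -0.24 to 0.41). B2M was at 5975 and 6175 and 6282 and 6212 CPM (-0.04 ± 0.21, -0.49 to 0.41), and CHAC1 at 5.22 and 7.48 and 6.54 and 6.97 CPM (-0.08 ± 0.24, -0.58 to 0.42). The libraries of the ligands overlapped for each of these except B2M. The interval lay within 2-fold for 115 of 150 pathway genes and for 9312 of 9729 genes at 5 CPM or more, and the median over the pathway was -0.02. The other 35 pathway genes are not bounded to 2-fold by these libraries. The H11 libraries also had the length trend of the IFNw ones (rho -0.419 and -0.429).

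Against IFNL3 at the same dose, IFNw gave higher levels of antigen presentation genes and of part of the antiviral genes. EdgeR called 2422 genes between these ligands (19.1%), 1459 higher with IFNw (11.5%) and 963 lower (7.58%), of which 284 exceeded 2-fold (2.24%). Among pathway genes 34 were higher and 10 lower with IFNw. The IFNL3 libraries lacked the length trend (rho 0.0929 and 0.0497), and with the offset 1145 genes were called, 705 higher (5.55%) and 440 lower (3.46%), among them 22 pathway genes higher and 1 lower. Leaving out any 1 of these 4 libraries gave 1263 to 1527 calls. MHC class I genes were higher with IFNw in 4 of 6 (5 with the offset) and immunoproteasome and loading genes in 5 of 13 (also 5). B2M was at 5975 and 6175 CPM with IFNw and 2388 and 2376 CPM with IFNL3 (1.35 ± 0.22, or 1.10 with the offset), and HLA-B at 840.4 and 930.2 and 367 and 383 CPM (1.24 ± 0.17, or 0.95). PSMB9 was at 296 and 351 and 114 and 134 CPM (1.39 ± 0.16, or 0.90), and TAP1 at 362 and 362 and 178 and 188 CPM (0.98 ± 0.11, or 0.96). In these 4 the IFNw libraries were about 2-fold or more above both IFNL3 libraries.

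Antiviral effectors divided between the ligands. IFI27 was at 3179 and 3278 CPM with IFNw and 1057 and 1108 CPM with IFNL3 (1.58 ± 0.16, or 1.07 with the offset), IFIT1 at 2189.8 and 1986 and 1119.5 and 1019 CPM (0.97 ± 0.12, or 1.10) and GBP1 at 5.49 and 6.61 and 0.917 and 0 CPM (3.63 ± 0.73, or 2.71 without IFNL3 replicate 2, where only IFNL3 replicate 1, with 9 reads, is left; IFNL3 replicate 2 held no GBP1 read). All 3 were still called with the offset, whereas ISG15 (0.78 ± 0.13), IFI6 (0.64 ± 0.11) and IFITM1 (0.51 ± 0.13) were not, at 0.29, 0.17 and 0.04. Those lower with IFNw included OAS2 (-0.60 ± 0.17), ADAR (-0.70 ± 0.17) and HERC5 (65.6 and 56.3 against 103 and 88.8 CPM, -0.65 ± 0.14). Of the 10 pathway genes called lower, HERC5 was the one still called with the offset (-0.62). IFITM1, HERC5 and ADAR also lost their calls without IFNL3 replicate 1 (0.47, -0.51 and -0.62) and without IFNw replicate 2 (0.46, -0.52 and -0.51). OAS2 was not called without any 1 of the 4 libraries (-0.61 to -0.52). With the offset OAS2 was at -0.46 and ADAR at -0.45. Immediate early genes were lower with IFNw in 8 of 15 and higher in 1, or 6 and 0 with the offset. Of all tested genes 7.58% were lower and 11.5% higher, or 3.46% and 5.55% with the offset. EGR1, a growth-factor response gene, was at 5.62 and 4.86 CPM with IFNw and 16.6 and 20.1 CPM with IFNL3 (-1.80 ± 0.35, edgeR adjusted p = 0.002), and the related growth-signal gene ETV5 at -1.77 ± 0.42, a call lost without IFNL3 replicate 2 (-1.27) or IFNw replicate 2 (-1.69). JAK1 was at 7.10 and 7.23 and 18.3 and 10.7 CPM (-1.02 ± 0.28), and that call was lost with the offset (-0.86), without IFNL3 replicate 1 (-0.55) and without either IFNw library (-0.97 and -1.01). Genes of the ATF4 list, all but 2 of which fell against untreated cells, were called between the ligands in 4 of 24. Of these 3 were higher and 1 lower with IFNw, and the median of the list was 0.11. With the offset 2 were higher and 1 lower, and the median was 0.03. The share called was near that of all tested genes (19.1%). The higher ones were ATF4 (0.82 ± 0.13), PSPH (0.43 ± 0.14) and MTHFD2 (0.48 ± 0.11), and the lower one STC2 (-0.68 ± 0.16). PSPH was not called without any 1 library (0.42 to 0.47), and STC2 not without IFNL3 replicate 1 (-0.60) or IFNw replicate 2 (-0.52).

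**Figure D5:**
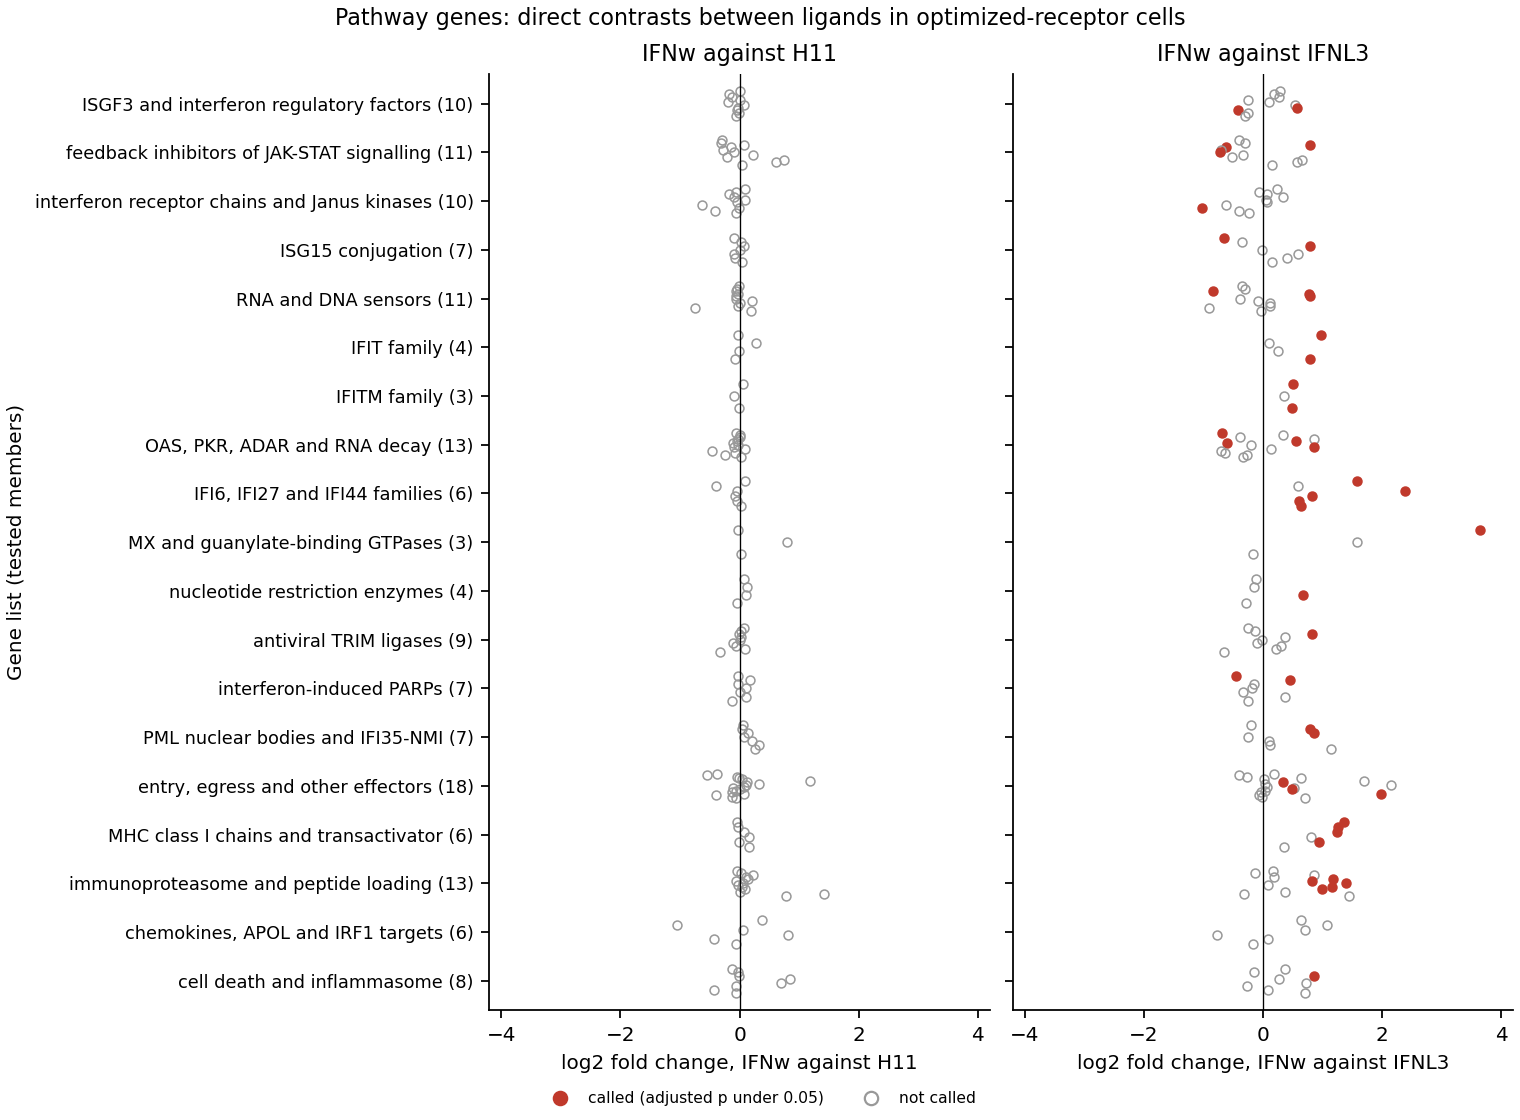
Log2 fold change of each tested pathway gene between IFNw and H11 (left) and between IFNw and IFNL3 (right) in optimized-receptor cells, in rows by list, filled where called. No gene is called on the left, where most points lie near 0, while on the right the MHC class I and immunoproteasome rows lie mostly above 0.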

How the data were processed

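The authors deposited raw read counts, 1 file of whole numbers per library, per the file headers and the values. Per the labels' protocols the kit was Ion 540 or 550 (Ion Torrent), and the submitters' processing notes name hg19 as the build. No aligner, counter or amplicon position, and no use of strand, is stated in the sources used here. Of 20812 targets, 10 spike-ins were left out. Spreadsheet software had turned 28 symbols into dates, and 27 were renamed by Entrez identifier.

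Counts of all 16 libraries entered one edgeR 4.0.16 fit in R 4.3.3 (filterByExpr, TMM factors, a coefficient per group, quasi-likelihood test), with a Benjamini-Hochberg adjusted p of 0.05 over 12704 genes as the threshold. All groups thus shared 1 estimate of the spread (biological coefficient of variation 13.3%). A self-test on simulated counts, with levels and spread taken from this fit, was run after it. No replicate pair agreed within sampling noise (chi-square per degree of freedom 6.345 to 24.86, the largest in untreated optimized cells). A count of 0 over a group was taken as at most 3 reads, and a ratio on 1 to 3 reads is given with its exact 95% interval. Both cover counting error only, since reads were not collapsed by molecule. Comparisons of IFNw, H11 and IFNL3 with untreated cells share the untreated libraries, so ligands were contrasted directly.

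The 41 gene lists (20 of the interferon pathway, 16 others, 5 of markers) and the members were chosen with earlier results of these data known; 613 of 615 memberships matched a target. Named genes were the 15 largest folds in each direction among called genes at 5 CPM or more whose libraries did not overlap, the 10 largest CPM changes in each direction, up to 5 called members per list, all pathway genes by level, and up to 10 in each direction per other contrast. Members named beyond these were chosen after their values were seen. For the length offset, each library was freed of a spline with 5 degrees of freedom on log transcript length (GENCODE 29, 12132 tested genes), which need not be the length counted. Other alternatives were DESeq2 1.42.0, edgeR with DESeq2's scaling, all genes with a read kept, a fit of the compared groups alone, a replicate block, and fits that left out 1 library at a time, which assume that the lone library of a group varies as the other groups do. Some named genes are not reported here.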

Additional observations from a re-analysis of the deposited data

How the results depend on the processing

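Of the 237 named genes called with IFNw against untreated cells, 0 changed direction and between 202 and 218 remained called when 1 library was left out. With DESeq2 230 remained called, with its size factors 233, without the low-count filter 234 and with the length offset 208. The fit of the compared groups alone kept 177 of the 230 it could test and called 2052 genes in all instead of 4247, while between IFNw and IFNL3 the same kind of fit called 2936 instead of 2422; the cause was not tested. Leaving out 1 library gave 3006 to 4665 calls. The difference between the genotypes' responses was called for 15 genes without the low-count filter and for 0 to 766 when 1 library was left out. IFNw against IFNL3 gave 1145 calls with the length offset and 1263 to 1527 when 1 library was left out, and IFNw against H11 gave 0 under all alternatives run. Signs turned for HIST1H3D with the length offset (-0.61, and -0.61 with the replicate block as well, from 0.07 and not called), for the ribosomal protein median with the same 2 settings (-0.02), and for the TGF-beta and YAP median when an IFNw library was left out (0.06 and 0.13, from -0.19, and -0.28 without untreated replicate 1); the cause was not tested. Replicate numbers are shared between groups, but no label says that a number marks a shared batch. Deviations of same-numbered libraries correlated at 0.134 between the IFNw and untreated groups and at 0.128 to 0.211 over all 7 other groups, all positive, and with only 2 numbers this was taken as a shared number only. With the replicate block 4858 genes were called, all 237 named genes among them, and 3175 between IFNw and IFNL3. Genes with few untreated reads have bounds or wide intervals, and depth limits them.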

Other observations

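Beyond the lists, 15 genes rose more than 10-fold with IFNw in optimized-receptor cells, counted with the same bounds. The 8 described here were chosen after their values were seen. RARRES3, a phospholipase-like growth inhibitor, rose from 15.6 and 15.2 to 189 and 183 CPM (3.59 ± 0.14), and the meiotic cohesin subunit REC8 from 1.02 and 1.05 to 12.1 and 13.7 CPM (3.63 ± 0.25). CARD16, a relative of the caspase-1 recruitment domain, rose from 0.305 and 0.700 to 11.4 and 13.1 CPM (4.71 ± 0.41, or 4.10 without untreated replicate 1), and SLC15A3, a transporter of histidine and peptides in lysosomes, from 0.305 and 0.350 to 5.76 and 6.86 CPM (4.23 ± 0.61). The helicase-domain gene TRANK1 went from 1 untreated read to 12.9 and 9.72 CPM, 174-fold higher (counting interval 30.9 to 6930.0). HSH2D, an adaptor of lymphocyte signalling, went from no untreated read to 1.07 and 3.24 CPM, at least 11.4-fold higher. CFB, complement factor B, and CD69, an early activation marker, rested on 1.47 and 0.997 and 2.28 and 3.37 CPM with IFNw. In wild-type cells with IFNw the log2 fold changes were 3.49 for RARRES3, 3.50 for REC8, 3.27 for CARD16 and 5.24 for SLC15A3. Of the 8 among the 15 with a promoter window, 2 held the core of the ISGF3 element.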
